A study of Homo sapiens with 10 samples.

Results

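The genes described here are 10 members of the signalling route that starts at the receptor tyrosine kinases FLT3 and KIT and is controlled by the ubiquitin ligase CBL: FLT3, KIT, CBL, CBLB, SH2B3, PTPN11, GRB2, SOS1, SPRY2 and DUSP6. They were chosen by symbol from 63677 gene identifiers in the count files, and CBLB was selected on its lower level in VENins lines, so its values between the groups are a description and carry no test. RNA-Seq libraries came from RS4;11, an established line of acute lymphoblastic leukemia of B cell precursors with the fusion gene KMT2A::AFF1. VENins lines had been made insensitive to the BCL-2 inhibitor venetoclax (VEN) by growth in rising amounts of the drug, and VENsens lines had been kept alongside them with the solvent DMSO. Each group held 5 lines raised in parallel from the same parental culture, with 1 library per line, and the drug was washed out before cells were analysed. Until that wash the VENins lines were grown with the drug throughout, and the VENsens lines without it. Ongoing exposure to the drug and acquired insensitivity therefore cannot be told apart in these groups. Both groups share the RS4;11 background and, apart from the drug or its solvent, the medium. No drug-free branch of the VENins lines was analysed here.

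FLT3 and KIT are class III receptor tyrosine kinases that bind the ligands FLT3LG and KITLG on early blood progenitors, and FLT3 is known for its high level in leukemias with a KMT2A fusion. An activated receptor recruits GRB2 and SOS1, which load RAS with GTP and switch on the RAF, MEK and ERK kinases, while PTPN11 (the phosphatase SHP2) helps this step. CBL and CBLB tag active receptors with ubiquitin for removal, SH2B3 (LNK) dampens receptor and JAK signalling, and SPRY2 and DUSP6 are made in response to ERK activity and restrain it.

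Counts on genes ranged from 20631907 to 28323643 per library. Levels are given as CPM, the counts of a gene scaled to a common library total after TMM normalization. Different genes are ranked as CPM per kilobase of exon, except in marker lists of other cell types and for genes with few counts. The labelled cell type was checked with 11 pro-B ALL markers, whose summed level was 3668 to 3773 CPM in the VENsens group and 3584 to 4053 CPM in the VENins group, with IGLL1 the highest per length in the mean of each group. DNTT was the lowest of them in the group means, also per length. It stood at 3.05 to 8.31 CPM in VENsens lines and at 1.08, 1.43, 3.38, 27.3 and 1.96 CPM in VENins lines 1 to 5. VENins line 4 thus stood far above the other lines in this marker; the log2 fold change of DNTT was -0.36 (adjusted p = 0.790, edgeR's quasi-likelihood test), and its direction turned with the setting. It was -1.44 without line pair 4 (adjusted p = 5.12e-05 in edgeR, range over 12 alternatives 5.12e-05 to 0.978), between -0.21 and 0.05 without any other line pair, and 0.49 with no replicate block; the VENsens mean was 5.02 CPM and the VENins mean 7.02 CPM. The part of DNTT in the values below was not tested. PAX5 was lower in VENins lines, with a log2 fold change of -0.31 (adjusted p = 0.0272, edgeR's quasi-likelihood test), a call that was lost without line pair 2, 3 or 5 (adjusted p = 0.242, 0.0597 and 0.0647, range over 13 alternatives 1.24e-06 to 0.242), and the part of PAX5 in the values below was not tested either. The 6 T cell markers summed to at most 1.08 CPM in any library, the 8 myeloid markers to at most 8.90 CPM, the 4 erythroid markers to at most 0.242 CPM and the 4 stromal markers to at most 3.33 CPM. CD8A, S100A8, S100A9, HBA1 and DCN had no count in any library, and the leading gene of these lists was ITGAM, at a mean of 4.55 CPM. The myeloid marker CD33 stood at 1.27, 0.613, 1.59, 2.83 and 1.74 CPM in VENins lines 1 to 5, against 1.75 to 2.68 CPM in VENsens lines. Its log2 fold change was -0.48 (adjusted p = 0.314, edgeR's quasi-likelihood test), or -0.78 without line pair 4. MPO had 11 counts in VENins line 4 and at most 6 in any other library. The part of CD33 and MPO in the values below was not tested.

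The lines of a group were not copies of each other. Over all genes, chi-square divided by its degrees of freedom lay between 2.02 and 10.7 for pairs of VENsens lines, between 4.63 and 10.5 for pairs of VENins lines 1 to 4, and between 14.6 and 15.7 for pairs that included VENins line 5. VENins line 5 therefore stood apart over the whole transcriptome, and VENins line 4 was the highest VENins line in DUSP6, SPRY2 and some of the other genes described below, so some of the results are also given without line pair 4 or line pair 5. Line pair 4 was singled out after these values were seen, so an adjusted p without it depends on that choice and is only a description. With the line number as a block, the p-values rest on how far the VENins minus VENsens differences varied between pairs of same-numbered lines. With no block, they rest on the spread between the separately grown lines of a group. The line numbers did not pair the samples by the data, as given in the last section.

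FLT3 was the highest of the 10 members per length, with 76.9 ± 5.11 CPM per kilobase in VENsens and 72.0 ± 2.69 CPM per kilobase in VENins lines (SD, n = 5 each). This level was above that of 96.7% of the 11928 tested protein-coding genes with a length. Next in VENsens lines came PTPN11 at 30.8 ± 0.913, SPRY2 at 27.2 ± 1.38, GRB2 at 26.7 ± 0.783 and SH2B3 at 15.1 ± 0.618 CPM per kilobase. Below them lay CBL at 8.97 ± 0.827, SOS1 at 8.08 ± 0.611, DUSP6 at 7.65 ± 0.860 and CBLB at 4.86 ± 0.342 CPM per kilobase. KIT lay far below the rest. The ranges of SPRY2 and GRB2 overlapped in VENsens lines, as did those of CBL and SOS1 and those of SOS1 and DUSP6, although CBL lay above SOS1 in each VENsens line. In the means of VENins lines GRB2 moved above SPRY2, and the rank of the other members was the same. Single VENins lines departed from this order. In VENins lines 1, 2 and 5 DUSP6 lay below CBLB, at 2.40, 2.63 and 2.49 against 3.23, 3.06 and 3.31 CPM per kilobase. In VENins line 4 DUSP6 stood at 9.99 CPM per kilobase, above CBL and SOS1. SPRY2 lay above GRB2 in VENins lines 3 and 4, and SOS1 above CBL in VENins lines 2 and 4. With the longest transcript as the length, GRB2 also ranked above SPRY2 in VENsens lines and CBLB above DUSP6.

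**Figure D1:**
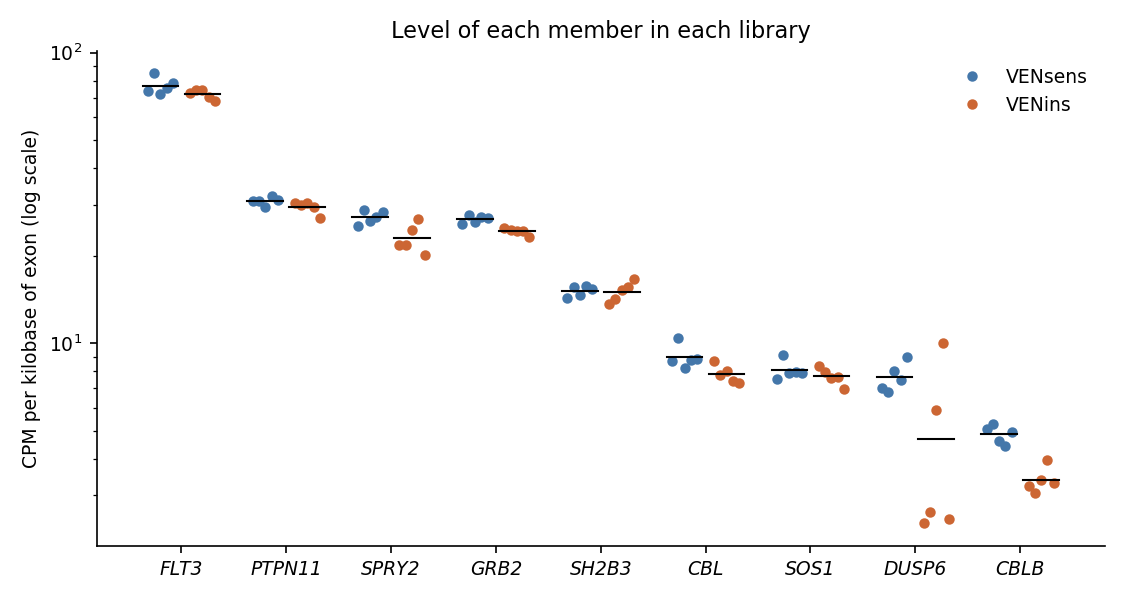
Level of 9 members in CPM per kilobase of exon (log scale) in each of 10 libraries, VENsens in blue and VENins in orange, with a bar at the mean of 5 lines. FLT3 lies at the top in every library, and DUSP6 spreads over the widest range in VENins lines; KIT is left out because it had at most 3 counts in a library.

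FLT3, the receptor with the highest level, stood at 306, 353, 299, 315 and 326 CPM in VENsens lines 1 to 5 and at 301, 310, 309, 292 and 284 CPM in VENins lines 1 to 5. VENsens line 2 was the highest and VENins line 5 the lowest, and the groups overlapped. The log2 fold change of VENins against VENsens was -0.09 (95% interval -0.21 to 0.02, adjusted p = 0.410, edgeR's quasi-likelihood test), lower in 4 of 5 line pairs. In bulk RNA, fewer cells with a transcript and less of it per cell cannot be told apart. Between VENins lines the SD of log2 CPM of FLT3 was 0.05, below that of all but 8.22% of the 14616 tested genes with a mean of at least 1 CPM. Between VENsens lines the SD was 0.09, at percentile 43.9. Genes near 1 CPM carry more counting error than FLT3, which was not removed from this comparison.

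KIT, the sister receptor, was at the limit of detection. It had 3 counts in VENsens line 2, 1 count in VENsens line 5, 1 count in VENins line 2, 2 counts in VENins line 4 and none in the other 6 libraries. A count of 0 allows up to 3 counts, which is 0.106 to 0.145 CPM depending on the library, and this limit covers counting error only. KIT did not pass the filter on low counts, so it has no fold change or test in edgeR with that filter, and none is given here. Of the ligand genes, KITLG had no count in any library, and FLT3LG had 1 to 3 counts per library, 18 in all, against 7 for KIT. Of the other class III receptors, PDGFRA had no count, and CSF1R and PDGFRB were low, at 1.70 and 2.04 CPM per kilobase in VENsens lines. The transcripts of this receptor family were therefore almost all FLT3.

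CBL, which adds ubiquitin to active FLT3 and KIT, stood at 102, 122, 96.6, 103 and 103 CPM in VENsens lines 1 to 5 and at 102, 91.5, 94.3, 87.0 and 85.4 CPM in VENins lines 1 to 5. VENsens line 2 lay well above the other VENsens lines, VENins line 5 was the lowest, and VENins line 1 lay inside the VENsens range. CBL had a log2 fold change of -0.19 with a standard error of 0.07 and an adjusted p of 0.178 in edgeR's quasi-likelihood test. With the trend on exonic length and GC content of each library removed, it was -0.09.

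CBLB, the related ligase, stood at 62.1, 64.5, 56.4, 54.2 and 60.6 CPM in VENsens lines 1 to 5 and at 39.7, 37.5, 41.4, 48.8 and 40.6 CPM in VENins lines 1 to 5. Every VENins line lay below every VENsens line. CBLB was listed because it was lower in VENins lines, so this separation is not an independent result. VENins line 4 was the nearest to the VENsens lines and VENins line 2 the farthest from them. The mean in VENins lines was 69.8% of that in VENsens lines, and the log2 fold change was -0.52 (standard error 0.08), -0.61 without line pair 4 and -0.50 without line pair 5. The difference on the log2 CPM scale ran from -0.15 in line pair 4 to -0.78 in line pair 2. Per length of the union of exons, CBL exceeded CBLB in the group means, at 8.97 against 4.86 CPM per kilobase in VENsens and 7.84 against 3.39 in VENins lines. With the longest transcript as the length, the means in VENsens lines lay close together, at 9.38 for CBL and 8.79 for CBLB.

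Over the 10 libraries, the tested protein-coding genes with the pattern most like that of CBLB in log2 CPM were IRF4 (Pearson r = 0.99), RREB1 (r = 0.98) and SUPT6H (r = 0.97), out of 11137 genes compared. IRF4 stood at 221, 221, 213, 211 and 212 CPM in VENsens lines 1 to 5 and at 180, 175, 179, 198 and 181 CPM in VENins lines 1 to 5. Like CBLB, it was low in every VENins line and highest among them in line 4. The genes most like FLT3 were MON2 (r = 0.98), CD96 (r = 0.97) and SPIN1 (r = 0.97). KIT had too few counts for such a comparison. These likenesses describe the same 10 libraries and carry no p.

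SH2B3, an adaptor that restrains receptor signalling, stood at 81.3, 88.5, 83.5, 89.5 and 87.5 CPM in VENsens lines 1 to 5 and at 77.4, 80.6, 86.7, 89.0 and 94.3 CPM in VENins lines 1 to 5. VENins lines lay on both sides of the VENsens range, with line 5 the highest. Its log2 fold change was -0.01 (95% interval -0.13 to 0.11, adjusted p = 0.957, edgeR's quasi-likelihood test), and its sign turned to 0.06 once the length and GC trend was removed.

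GRB2, the adaptor that ties receptors to SOS1, stood at 121, 130, 123, 128 and 128 CPM in VENsens lines 1 to 5 and at 118, 116, 115, 115 and 109.8 CPM in VENins lines 1 to 5. Every VENins line lay below every VENsens line, although by little. Of the 8 tested members other than CBLB, GRB2 was the only one whose groups did not overlap in this way, against 2.3% of all tested genes. GRB2 had a log2 fold change of -0.14 (95% interval -0.25 to -0.03, adjusted p = 0.215, edgeR's quasi-likelihood test), lower in 5 of 5 line pairs. GRB2 also had the smallest spread of the members, with a coefficient of variation of 2.93% in VENsens and 2.56% in VENins lines. DESeq2 with no replicate block gave it an adjusted p of 0.0308, and its adjusted p over 13 alternatives ran from 0.0308 to 0.584.

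PTPN11, the phosphatase that promotes RAS activation, stood at 216, 216, 207, 225 and 219 CPM in VENsens lines 1 to 5 and at 214, 209.8, 213, 207 and 189.6 CPM in VENins lines 1 to 5. VENins line 5 was the lowest of the 10 libraries and lay apart from the other VENins lines, and the groups overlapped. The log2 fold change was -0.07 (95% interval -0.18 to 0.05, adjusted p = 0.563, edgeR's quasi-likelihood test), -0.03 without line pair 5 and -0.02 with the length and GC trend removed. PTPN11 shares bases with RPL6 on the opposite strand, which had 8492 to 12843 counts per library, and the strand setting of the counting is not given in the sources used here, so reads from the shared stretch are uncertain. The same holds for CBL, which overlaps MCAM (163 to 260 counts), and for SH2B3, which overlaps ATXN2 (841 to 1100 counts).

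SOS1, the exchange factor that loads RAS, stood at 69.7, 84.5, 72.9, 73.9 and 73.2 CPM in VENsens lines 1 to 5 and at 77.3, 73.7, 70.3, 70.7 and 64.6 CPM in VENins lines 1 to 5. VENsens line 2 was again the highest and VENins line 5 the lowest, with the other libraries intermixed. SOS1 had a log2 fold change of -0.07 (95% interval -0.20 to 0.06, adjusted p = 0.619, edgeR's quasi-likelihood test), -0.04 without line pair 2 or line pair 5, -0.12 without line pair 1 and -0.0022 with the length and GC trend removed. For FLT3, SH2B3, PTPN11 and SOS1, the 95% intervals all included 0 and lay within -0.21 and 0.11 on the log2 scale.

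SPRY2, a feedback inhibitor that acts between receptor and RAS, stood at 77.0, 87.1, 79.9, 82.6 and 86.1 CPM in VENsens lines 1 to 5 and at 66.1, 66.1, 74.5, 81.5 and 61.1 CPM in VENins lines 1 to 5. VENins lines 1, 2, 3 and 5 lay below every VENsens line, and VENins line 4 lay inside the VENsens range. The log2 fold change was -0.25 (standard error 0.07, adjusted p = 0.123, edgeR's quasi-likelihood test), lower in 5 of 5 line pairs. Without line pair 4 it was -0.30 with an adjusted p of 0.0491, and without line pair 5 it was -0.18 with an adjusted p of 0.199, both from edgeR. The adjusted p of SPRY2 over 13 alternatives ran from 0.0173 to 0.561.

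DUSP6, the phosphatase that switches off ERK in the cytoplasm, stood at 32.4, 31.6, 37.2, 34.6 and 41.5 CPM in VENsens lines 1 to 5 and at 11.1, 12.2, 27.3, 46.3 and 11.5 CPM in VENins lines 1 to 5. VENins lines 1, 2 and 5 were the lowest of the 10 libraries, line 3 lay between them and the VENsens lines, and line 4 was the highest of all. The log2 fold change was -0.91 (standard error 0.23, adjusted p = 0.0974, edgeR's quasi-likelihood test), lower in 4 of 5 line pairs. Without line pair 4 it was -1.27 with an adjusted p of 8.05e-05, and without line pair 5 it was -0.67 with an adjusted p of 0.185, both from edgeR; without line pair 1, 2, 3 or 5 the adjusted p of DUSP6 lay between 0.115 and 0.561. Its adjusted p over 13 alternatives ran from 5.16e-25 to 0.561. The smallest of these came from edgeR with no filter on low counts.

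The spread between VENins lines set DUSP6 apart from the other members. The SD of log2 CPM of DUSP6 was 0.16 between VENsens lines and 0.92 between VENins lines, the latter above that of 99.8% of 14616 genes. SPRY2 followed at some distance, with 0.07 and 0.16. GRB2 had 0.04 in both groups, against a median over these genes of 0.10 in VENsens and 0.12 in VENins lines.

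**Figure D2:**
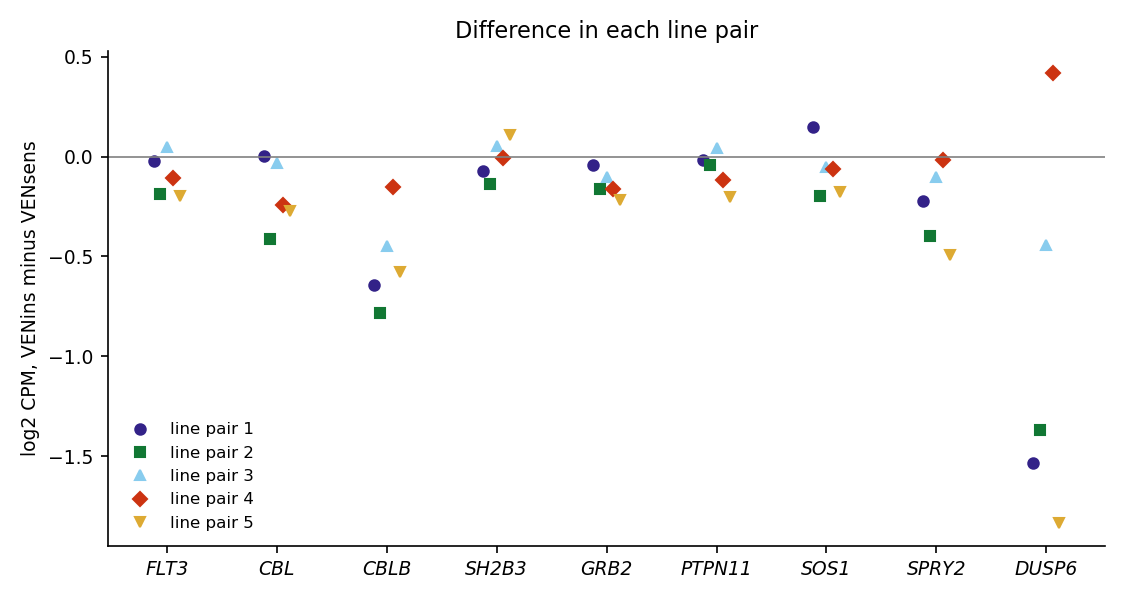
Difference in log2 CPM between the VENins and the VENsens line of the same number, for 9 members, with 1 point for each of 5 line pairs. DUSP6 runs from -1.84 in line pair 5 to 0.42 in line pair 4, whereas GRB2 stays between -0.22 and -0.04.

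The genes most like DUSP6 over the 10 libraries were PLEKHO1 (r = 0.99), NRIP1 (r = 0.99) and GPR176 (r = 0.98), out of 11137 compared. NRIP1 stood at 74.99, 88.3, 84.0, 78.2 and 95.7 CPM in VENsens lines 1 to 5 and at 25.4, 23.4, 54.0, 118.7 and 27.1 CPM in VENins lines 1 to 5. As with DUSP6, VENins line 4 was on top and VENins lines 1, 2 and 5 were at the bottom.

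The sequence before the start of DUSP6, SPRY2 and the other members was searched for motifs. RefSeq promoter windows (GRCh38.p14) were matched by symbol for 8 of 10 members, and CBL and PTPN11 had no entry. In the 250 bases before each start, both strands were searched for CCGGAAG and GGAAGT (cores bound by ETS factors, which overlap by their shared GGAAG), TGACGTCA (a cyclic AMP response element) and TGACTCA (an AP-1 element). These letters were found in 8.52%, 19.5%, 1.65% and 4.2% of all 35116 windows. The single DUSP6 window held none of them, and of the 3 SPRY2 windows 1 held GGAAGT on the reverse strand. The windows of SPRY2 are shown because they lie outside annotated exons. SPRY2 was also chosen as a member in which, as in DUSP6, VENins lines 1, 2 and 5 were the lowest of the 10 libraries. The match is in capitals, and the sequences run 5′ to 3′ on the minus strand.
SPRY2, chr13:80341127-80341376: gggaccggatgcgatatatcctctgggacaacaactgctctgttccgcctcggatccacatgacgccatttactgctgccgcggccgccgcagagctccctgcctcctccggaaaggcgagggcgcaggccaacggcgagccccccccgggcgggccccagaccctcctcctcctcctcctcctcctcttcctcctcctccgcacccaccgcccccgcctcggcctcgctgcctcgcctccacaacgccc
SPRY2, chr13:80340109-80340358: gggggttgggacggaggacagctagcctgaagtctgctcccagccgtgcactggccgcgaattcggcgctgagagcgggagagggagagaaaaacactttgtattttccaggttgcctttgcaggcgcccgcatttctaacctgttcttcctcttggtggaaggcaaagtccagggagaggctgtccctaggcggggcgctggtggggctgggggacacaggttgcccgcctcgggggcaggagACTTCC
SPRY2, chr13:80339660-80339909: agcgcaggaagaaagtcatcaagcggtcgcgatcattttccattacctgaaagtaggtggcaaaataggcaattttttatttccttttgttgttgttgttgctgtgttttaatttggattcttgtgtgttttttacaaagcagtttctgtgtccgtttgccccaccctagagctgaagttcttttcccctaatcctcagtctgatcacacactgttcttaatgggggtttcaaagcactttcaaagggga
A match describes letters in a window, not a bound site. GGAAGT was also present in 1 of 5 windows of CBLB and in the window of GRB2, and none of the 4 motifs was in the windows of FLT3, KIT, SH2B3 or SOS1, nor in those of the pathway genes SPRY4, SPRED1, SPRED2, EGR1 or GAB2, described below; ETV5 and SOCS2 had no entry.

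By edgeR's quasi-likelihood test with the line number as a block, 0 of the 8 tested members other than CBLB had an adjusted p under 0.05, against 0.197% of all 16756 tested genes. CBL, GRB2, SPRY2 and DUSP6, 4 in all, had an unadjusted p under 0.05 and were lower in VENins lines, and 8.38% of all tested genes were lower at that level. edgeR with no replicate block called 0 of them (0.597% of all genes were called lower), as did DESeq2 with the replicate block (0.895%). DESeq2 with no replicate block called GRB2 and SPRY2 lower (2.27% of all genes), edgeR with no filter on low counts called SPRY2 and DUSP6 lower (1.32%), and edgeR without line pair 4 called the same 2 (1.5%). Since the members were chosen with results in view, these counts are read only as a description.

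Other genes of the pathway, 104 in 10 lists by role, placed the members in context. Of these, 89 were tested and 0 had an adjusted p under 0.05 in edgeR's quasi-likelihood test; at an unadjusted p under 0.05, 6 were higher and 23 lower in VENins lines, where 7.79% of all tested genes were higher and 8.38% lower. edgeR with no replicate block called EGR1, ETV5 and SPRY4, DESeq2 with the replicate block called GAB2 and SPRY4, and DESeq2 with no replicate block called 6, HRAS higher (2.14% of all genes were called higher) and EGR1, ETV5, GAB2, SPRED1 and SPRY4 lower. The median log2 fold change was 0.0035 over all tested genes, -0.36 over 8 tested ERK feedback inhibitors and -0.32 over 6 tested ERK output genes. The other 8 lists had medians between -0.05 and 0.05.

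**Figure D3:**
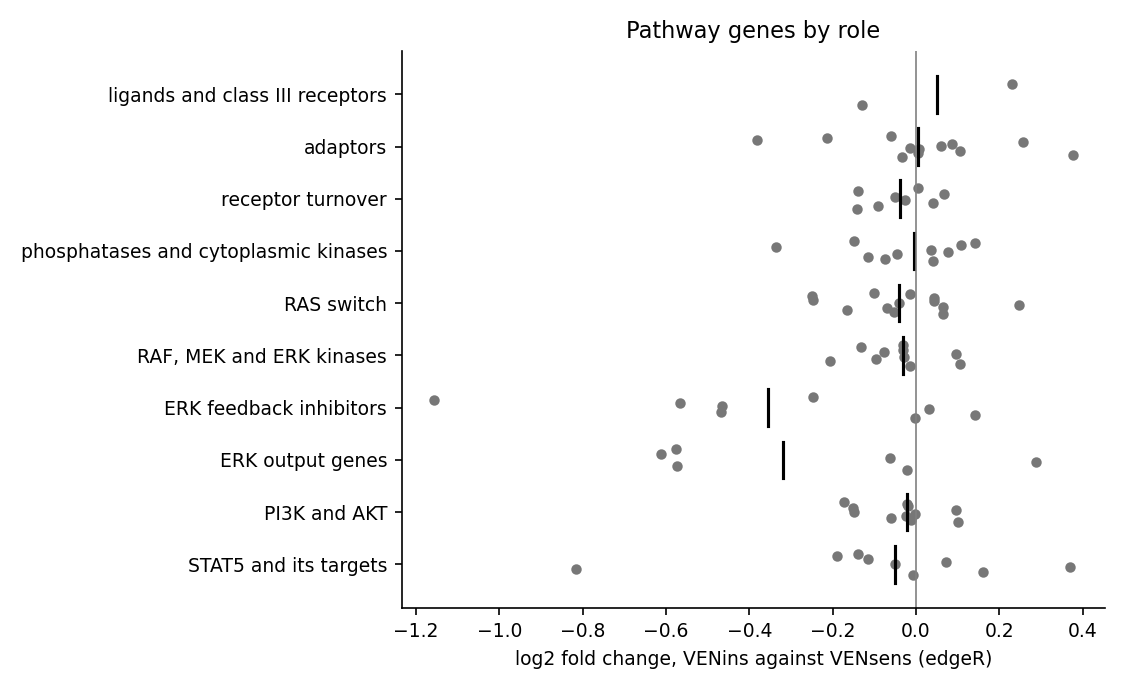
log2 fold change of VENins against VENsens lines (edgeR) for each of 89 tested pathway genes, 1 point per gene, by role, with a bar at the median of each list. The lists from adaptors to the RAF, MEK and ERK kinases centre near 0, and the feedback and output lists lie to the left, at medians of -0.36 and -0.32.

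In the lists by role, log2 fold changes ran from -0.25 to 0.25 over 13 tested RAS switch genes. Over the 10 tested RAF, MEK and ERK kinases they ran from -0.21 to 0.105. The most abundant genes per length of 9 lists were PDGFRB, CRKL, UBASH3B, PTPN6, NRAS, DUSP2, MYC, PIK3CD and BCL2L1, and their log2 fold changes lay between -0.14 (UBASH3B) and 0.11 (PTPN6). UBASH3B, which binds CBL and opposes receptor removal, was almost as high per length as FLT3, at 71.5 CPM per kilobase in VENsens lines. Among the 2 smallest p of their lists were also those of BRAF (-0.13), KSR1 (-0.21), RASGRP1 (-0.25), HRAS (0.25), PTPN1 (-0.15), PTPRJ (-0.34), USP8 (-0.14), PIK3CA (-0.17), PIK3R1 (-0.15), DOK2 (0.38), CSF1R (0.23) and SOCS1 (0.37), all as log2 fold changes and none with an adjusted p under 0.05 in edgeR with the block and the filter on low counts. Without the filter, edgeR called RASGRP1 and SOCS1 (adjusted p = 0.0166 and 0.0303, highest over 13 alternatives 0.575 and 0.614). Several of these changes leaned on single lines: BRAF came to -0.06, RASGRP1 to -0.14 and PTPRJ to -0.20 without line pair 2, USP8 to -0.08 without line pair 2 and to -0.07 without line pair 5, UBASH3B to -0.08, PTPN6 to -0.0031 and SOCS1 to 0.13 without line pair 5, and PDGFRB to -0.07 without line pair 4. With the length and GC trend removed, BRAF came to -0.06, USP8 to -0.04, KSR1 to -0.12, PIK3CA to -0.10, PIK3R1 to -0.09, PDGFRB to -0.06 and UBASH3B to -0.07.

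SPRY4, a feedback inhibitor related to SPRY2, stood at 9.19, 6.44, 6.83, 6.85 and 8.30 CPM in VENsens lines 1 to 5 and at 2.40, 1.92, 3.99, 6.80 and 2.53 CPM in VENins lines 1 to 5. As with DUSP6, VENins lines 1, 2 and 5 were the lowest and line 4 the highest of the VENins lines, with a log2 fold change of -1.16 (adjusted p = 0.0509, edgeR's quasi-likelihood test), or -1.51 without line pair 4 (adjusted p = 5.28e-05, range over 13 alternatives 4.76e-18 to 0.429). SPRED1, a feedback inhibitor of RAF activation, changed by -0.57 on the log2 scale (adjusted p = 0.0691, edgeR; -0.73 without line pair 4, adjusted p = 0.000644, range over 13 alternatives 3.39e-10 to 0.484, edgeR and DESeq2). ETV5, an ETS factor that follows ERK activity, also had -0.57 (adjusted p = 0.0610, edgeR; -0.69 without line pair 4, adjusted p = 0.00166, range 5.45e-14 to 0.484, edgeR and DESeq2). In both, VENins lines 1, 2 and 5 were the lowest and line 4 lay inside the VENsens range, as it also did in GAB2, an adaptor downstream of GRB2 (log2 fold change -0.38, adjusted p = 0.0552, edgeR; -0.48 without line pair 4, adjusted p = 0.000763, range 2.11e-07 to 0.466). SOCS2, a STAT5 target, reached 197.6 CPM in VENins line 4 and stood at 32.3, 37.6, 92.0 and 44.1 CPM in VENins lines 1, 2, 3 and 5, against 100.8 to 124.7 CPM in VENsens lines. Its log2 fold change was -0.82 (adjusted p = 0.175, edgeR), -1.26 without line pair 4 (adjusted p = 4.68e-05, range 3.45e-29 to 0.638) and -0.46 with no replicate block in edgeR and in DESeq2. SPRED2 is plotted beside these genes and was chosen after its values were seen. Of the other tested ERK feedback inhibitors, SPRY1 had VENins line 4 as the highest VENins line, at 15.9 CPM. SPRY1 stood at 12.2, 13.9, 11.1 and 10.4 CPM in VENins lines 1, 2, 3 and 5. DUSP4 was about level in VENins lines 4 and 3, at 5.27 and 5.25 CPM. DUSP2 (35.9 CPM), DUSP7 (43.4 CPM) and ERF (49.1 CPM) had VENins line 5 as the highest VENins line. DUSP4, SPRY1, DUSP7 and ERF are named here after their values were seen. EGR1 differed from this pattern in that every VENins line, line 4 included, lay below every VENsens line, at 3.22 to 4.32 against 4.68 to 6.54 CPM (log2 fold change -0.58, adjusted p = 0.0783, edgeR; -0.70 without line pair 4, adjusted p = 0.0105, range 0.000744 to 0.484). Without line pair 1, 2, 3 or 5, the adjusted p of SPRY4, SPRED1, ETV5, GAB2, SOCS2 and EGR1 was above 0.05 in edgeR.

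**Figure D4:**
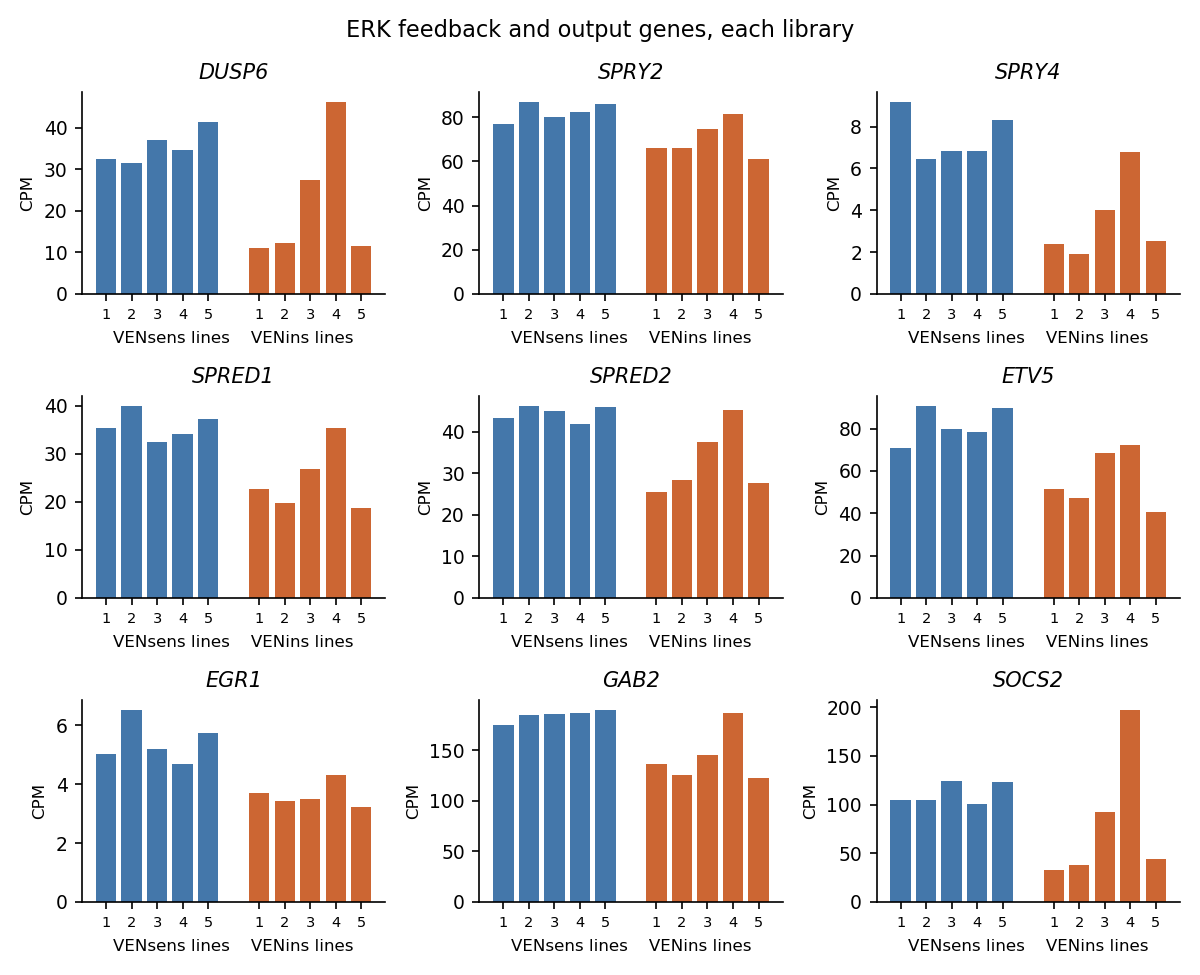
Level in CPM of DUSP6, SPRY2 and 7 other genes of ERK feedback, ERK output or related signalling in each of 10 libraries, 1 bar per line, VENsens in blue and VENins in orange. The genes shown were picked with this pattern in view, and line 4 is the highest VENins line in each; DUSP6 reads 46.3 CPM in line 4 and 11.1, 12.2 and 11.5 CPM in lines 1, 2 and 5.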

How the data were processed

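The authors deposited counts of reads per Ensembl gene for each of 10 libraries. The submitters' processing notes name bcl2fastq 2.20.0.422, Bowtie2 2.3.5.1, SAMtools 1.9 and HTSeq 0.9.1 and the builds hg19 and GRCh37; the strand setting is not given in the sources used here. Rows that name no gene took 45.8% to 47.3% of reads and were left out. Identifiers were named by GENCODE 29 (52526 of 63677; the others held 0.907% of counts), and exon lengths are the union of its exons. The members and lists were chosen with earlier results of these data known.

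VENins and VENsens lines were compared with edgeR 4.0.16 (TMM, filterByExpr with a minimum count of 10, quasi-likelihood test, line number as a block, Benjamini-Hochberg adjustment over 16756 tested genes), and with DESeq2 1.42.0 as an alternative. Log2 CPM used a prior count of 2. Intervals are 95%. Of the 10 members, 9 passed the filter. Named were all members and, from each role list, every gene with an adjusted p under 0.05, the 2 genes with the smallest p and the gene highest per length in VENsens lines; and the 3 tested protein-coding genes with a mean of at least 1 CPM most correlated with FLT3, KIT, CBLB and DUSP6. Alternatives were no block, DESeq2, other scalings, other filters, removal of a length and GC trend (splines with 4 degrees of freedom) and leaving out each line pair. A gene that the naming rule gives and a marker are not reported here.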

Additional observations from a re-analysis of the deposited data

Results flagged for a closer look

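Single libraries far from the other 4 of their group were looked for in 90 groups of 5 values of the named genes. Of these, 9 groups held 1. For a single group chance gives about 1 in 20, but these groups are not independent. IRF4 and RREB1 were named for their likeness to CBLB over these lines, so this rate does not hold for them. VENsens line 2 was high in CBL, at 122 CPM with the next line at 103 CPM. SOS1 was also high in VENsens line 2, at 84.5 CPM with the next at 73.9 CPM. PTPN11 was low in VENins line 5, at 189.6 CPM with the next at 207 CPM. PIK3CA was low there too, at 47.2 CPM with the next at 55.1 CPM. VENsens line 2 was low in CSF1R, at 6.15 CPM with the next at 9.18 CPM. PTPRJ was high in VENsens line 2, at 6.15 CPM with the next at 4.24 CPM. PTPN6 was high in VENsens line 1, at 471 CPM with the next at 406 CPM. VENins line 4 was high in IRF4, at 197.6 CPM with the next at 181 CPM, and in RREB1, at 43.5 CPM with the next at 37.8 CPM.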

How the results depend on the processing

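edgeR with the line number as a block called 33 genes, 0 members other than CBLB and 0 pathway genes. With no replicate block it called 149, 0 and 3. DESeq2 called 217, 0 and 2 with the replicate block, and 739, 2 and 6 with no replicate block. RLE size factors gave 35, 0 and 1; library size only gave 44, 0 and 2; no filter on low counts gave 664, 2 and 12; at least 10 counts in every library gave 28, 0 and 0; and the length and GC trend removed with the replicate block gave 142, 0 and 3. Leaving out each line pair gave 6 to 331 genes, 0 to 2 members and 0 to 8 pathway genes, the highest without line pair 4. The causes were not tested. The line numbers did not pair the samples by the data: deviations from the group means of same-numbered lines correlated at -0.10 to 0.03 in 5 pairs, and 0 VENsens lines correlated best with the VENins line of their number.

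Of 104 log2 fold changes of 8 members other than CBLB under alternatives, 95 kept their direction and side of the threshold, 6 came to pass it and 3 changed sign, all for SH2B3; CBLB, with no test, moved by less than 1 SD of its line differences. Of 468 for 36 other named genes, 407 kept both, 48 came to pass the threshold and 13 changed sign. With the length and GC trend removed, SH2B3 came to 0.0591, CRKL to 0.0525, DUSP2 to -0.0058 and PIK3CD to 0.0472. Leaving out each line pair moved SH2B3 from -0.039 to 0.0213, BCL2L1 from -0.0507 to 0.0246, CRKL from -0.046 to 0.0173, DUSP2 from -0.0372 to 0.0666, MYC from -0.0536 to 0.0297, NRAS from -0.0997 to 0.0198, PIK3CD from -0.073 to 0.0047 and PTPN6 from -0.0031 to 0.183. The reported values of these genes lay between -0.04 (NRAS) and 0.11 (PTPN6). With the longest transcript as the length, 7 of 10 member levels moved by more than 1 SD; with library size only, 0 did. At this depth KIT, KITLG and FLT3LG cannot be compared between the groups.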
